A study of Mus musculus with 18 samples.

Results

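Microglia of the control mouse retina were compared with the other cells of the same tissue by RNA sequencing of flow-sorted cells. The comparison used 8 of the 18 libraries of the study, chosen by their labels: 4 libraries of control microglia and 4 of control non-microglial cells, called retina here. Living cells were gated as negative for the dye DAPI and split by CD11b, a surface integrin subunit of myeloid cells, into a positive fraction (microglia) and a negative fraction (retina). All 8 libraries came from mice labelled Bmal1f/f, which carry floxed copies of the clock gene Bmal1. The labels name no Cre, agent or further allele for these groups, and age, sex and time of collection are not given in the sources used here. The 10 libraries of mice lacking Bmal1 in microglia were left out. The gate takes any CD11b-positive cell, and the retina fraction pools all CD11b-negative cells, so neither fraction is 1 cell type. Replicates are numbered in the labels but not said to be separate mice, so the tests weigh only the spread among these samples, which may be technical. Sex-linked genes set replicate 1 of each fraction apart from the others, as given below.

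Microglia are the resident macrophages of the central nervous system, and in the healthy retina their processes lie mainly in the synaptic layers. They depend on signals through the receptor CSF1R and on TGF-beta, survey the tissue with purine and chemokine receptors, and clear debris through phagocytic receptors and lysosomes. The remaining retina is made up mostly of rod photoreceptors, which spend much energy on ion pumping and the visual cycle and are known for a high rate of aerobic glycolysis.

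The genes that define the sort and its markers were checked first. Itgam (ENSMUSG00000030786, chromosome 7, 128062640 to 128118491, plus strand, GRCm38) encodes CD11b, the protein used for gating, so its difference is a check and not a result. It had 321, 379.9, 357 and 323 CPM (read counts scaled to a common library size and composition) in microglia replicates 1 to 4 and 1 read in all 4 retina libraries together. Csf1r, the receptor that microglia need to survive (ENSMUSG00000024621, chromosome 18), had 18038, 20691, 20984 and 18364 CPM in microglia and 5 reads in all in retina (log2 difference 19.23, SE 0.48, adjusted p = 5.18e-07; edgeR quasi-likelihood test with Benjamini-Hochberg adjustment, as for every adjusted p below). P2ry13 (ENSMUSG00000036362, chromosome 3, 59207892 to 59210882, minus strand), a receptor for ADP, had 2013, 2185, 2331 and 2287 CPM in microglia and 1 read in retina (count ratio 358596, 95% counting interval 64360.5 to 14163800.0). Every microglia library lay above every retina library for these 3 genes, as for 28.2% of all genes tested. Rcvrn (ENSMUSG00000020907, chromosome 11, 67695326 to 67703333, plus strand), the photoreceptor calcium sensor recoverin, went the other way, with 181, 150.1, 185 and 228 CPM in microglia and 3453, 4391, 3965 and 3362 CPM in retina (log2 difference -4.35, SE 0.18, adjusted p = 2.42e-06). All 25 genes of a microglia signature list were higher in microglia, and all 24 rod genes were lower. Intervals on counts cover counting error only, since the libraries were amplified from nanogram amounts of RNA and the labels name no molecular identifiers. Each SE is the absolute log2 difference divided by the square root of the test's F statistic. It is no separate estimate of error, and with few reads in a group it may understate counting error.

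**Figure D1:**
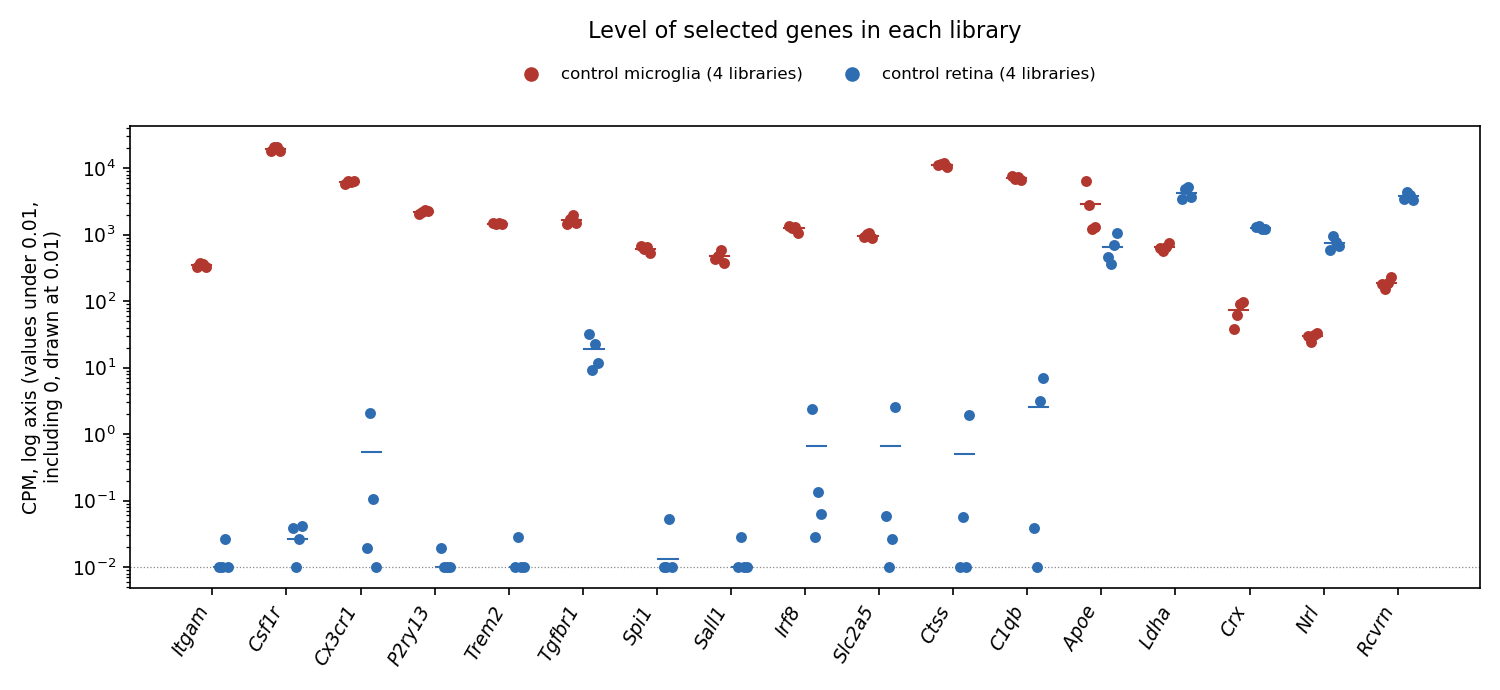
Level of 17 genes in each library, in CPM on a log axis; red points are the 4 control microglia libraries, blue points the 4 control retina libraries, and short lines the group means, with values under 0.01 drawn at 0.01. The 2 fractions lie apart for every gene shown, most closely for Apoe, and photoreceptor genes such as Rcvrn keep a clear level in microglia, for Rcvrn between 150.1 and 228 CPM.

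Total counts ran from 37426380 to 42768750 in microglia and from 37827575 to 47563119 in retina, so that 3 counts were worth 0.0631 to 0.0802 CPM. Spearman correlations across genes were 0.924 to 0.940 between microglia libraries, 0.883 to 0.905 between retina libraries and 0.522 to 0.601 between the fractions. The Y-linked genes Ddx3y, Eif2s3y, Kdm5d and Uty had 0 counts in both libraries numbered 1 and counts in the other 6, and Xist had 40.9 CPM in microglia replicate 1 and 0.0841 CPM in retina replicate 1. In microglia replicates 2 to 4 Xist had at most 0.0488 CPM, so replicate 1 differed from them in genes of both sex chromosomes. Whether other differences of replicate 1 go with sex was not tested. Rod transcripts were present in the microglia libraries: their level there was 4.01% to 8.35% of that in retina (median 4.93%). The share was higher for markers of other retinal cells, with medians of 14.5% for cones, 22.3% for bipolar cells, 28.0% for amacrine and horizontal cells and 35.1% for Müller glia and astrocytes. Their ranges were 5.67% to 329% (Gngt2), 5.94% to 39.0%, 14.5% to 42.7% and 10.7% to 450% (Apoe), in the same order. The cone and Müller glia lists thus hold genes that were higher in microglia. In the opposite direction the 25 signature genes of microglia reached 0% to 29.7% of their microglia level in retina (median 0.0088%), highest for Bin1, with Sparc at 2.84%. How much retinal RNA outside cells, or sorted together with microglia, added to the microglia libraries was not tested. Every gene given below as lower in microglia can be read against the rod range. The medians of the other retinal cells, cited below, are a weaker guide, because some of their lists hold genes higher in microglia.

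**Figure D2:**
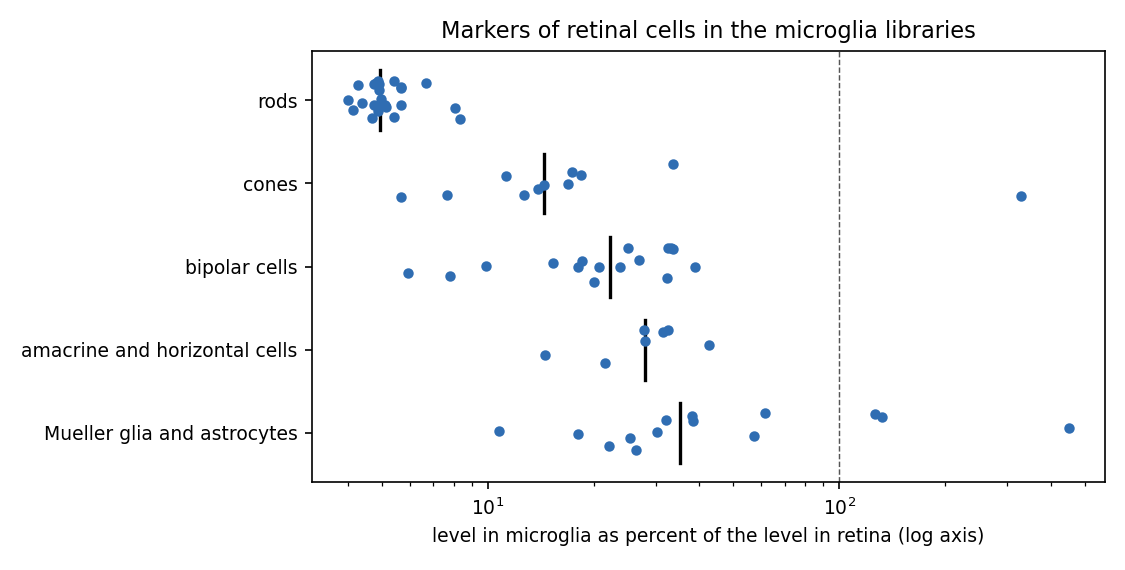
Level of retinal cell markers in the microglia fraction as a percentage of the retina level, on a log axis; each point is 1 gene that averages 10 CPM or more in retina and the black bar is the median of its list. Rod genes lie in a narrow band around 4.93%, and markers of the other retinal cells mostly lie higher and are more spread, up to 450%.

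Macrophages from the borders of the nervous system also carry CD11b, and their markers differed between the microglia libraries. Summed over the 12 markers of the list, the level was 999, 596, 295 and 345 CPM in microglia replicates 1 to 4 and at most 5.64 CPM in retina. Stab1 alone averaged 351 CPM in microglia, more than any other member, so the sums do not follow the other markers closely. Mrc1, the mannose receptor, had 154, 93.02, 0.824 and 9.49 CPM, and F13a1, a coagulation factor subunit of macrophages, had 189, 104, 9.19 and 29.8 CPM. Both were high in replicates 1 and 2 and low in replicates 3 and 4. The defining markers Cd163 and Siglec1 had 34.4 and 19.8 CPM in replicate 1, 17.5 and 9.36 CPM in replicate 2 and no reads in replicates 3 and 4 or in retina. They were not tested, because the filter on low counts keeps a gene only where at least 4 of the 8 libraries hold enough reads. Cbr2 and Folr2 averaged 1.49 and 0.659 CPM in microglia, and Cd209f had no reads. The monocyte markers summed to 94.0 to 155 CPM in microglia and 29.5 to 56.0 CPM in retina. Of these, Nr4a1 averaged 36.1 CPM in microglia and 25.5 in retina, and Fn1 24.4 and 19.3 CPM, and neither passed the threshold. The monocyte receptor Ccr2 averaged 16.6 CPM in microglia. Granulocyte markers were present in replicates 2 and 3. Ngp, a neutrophil granule protein, had 0, 38.99, 30.7 and 0 CPM in microglia replicates 1 to 4, and Ltf, lactoferrin, had 0, 21.97, 28.3 and 0 CPM. S100a8 and S100a9 averaged 8.59 and 8.67 CPM in microglia, and none of these 4 genes had a read in retina or was tested. Csf3r had 447, 491, 453 and 457 CPM in the microglia libraries, Lcn2 averaged 2.10 CPM, and Elane and Mpo had no reads in microglia. Of the 15 lymphocyte markers only Cd79b (32.2 CPM) passed the filter. Nkg7, a gene of cytotoxic lymphocytes, had 15.2, 1.82, 0 and 0 CPM, and the T cell genes Cd3d and Trac had no reads. The part of these cells in the results below was not tested beyond leaving out libraries.

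Across all genes, 15188 were tested and 6100 differed between the fractions (40.2%). Of these, 3458 were higher in microglia (22.8% of the genes tested) and 2642 were lower (17.4%). A difference of at least 4-fold was found for 2259 higher (14.9%) and 1343 lower genes (8.84%), and the median log2 difference (microglia minus retina) over all genes was 0.025. Upper quartile scaling moved that median by -0.271 and the share of calls that were higher from 56.7% to 47.0%. All microglia libraries lay above all retina libraries in 28.2% of the genes tested, and all retina libraries above all microglia libraries in 21.4%. Counts of gene groups and remarks on overlap below are to be read against these percentages, because so large a share of genes differed. The 527 tested genes without a retina read passed the filter through microglia alone and could not come out lower. The reverse holds for 54 tested genes without a microglia read. Of the 46 genes named here with a test that did not pass, 28 passed under at least 1 of 20 other settings, mostly with DESeq2 or limma voom. Microglia and retina were measured in bulk, so fewer cells of a type and less RNA per cell cannot be told apart.

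Levels of different genes are compared as CPM per kilobase of exon (RPKM). The most abundant microglia transcript was Cst3, an inhibitor of cathepsins, at 21667 RPKM in microglia and 1098 RPKM in retina. Among the most abundant were also Ctss (cathepsin S, 8258 RPKM), C1qb (6613), C1qa (4465), Tmsb4x (3585), C1qc (3529), Csf1r (3381), Ctsd (3331) and B2m (3326). Lysosomal proteases, the chains of complement C1q and the CSF1 receptor were among these genes. In retina the list held 8 photoreceptor genes led by Gnat1 (21129 RPKM), the rod transducin, together with Rbp3, a retinoid carrier between photoreceptors and their neighbours, and Aldoa, a glycolytic enzyme (2317 RPKM).

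Of the 15 protein-coding genes with the largest fitted differences among those with at least 100 CPM in microglia, 12 had no read in any retina library. They included Vsir (2396 CPM, at least 129968-fold higher against a floor of 3 counts over the retina group), which encodes the checkpoint protein VISTA, and Gpr34 (1359.9 CPM, at least 73756-fold), a receptor for lysophosphatidylserine. Siglech, Cd68, Itgb2, Myo1f, Entpd1, Mpeg1, Tnfrsf1b, Dock2, Lyz2 and Cd74 were the others. Among protein-coding genes with at least 100 CPM in retina, the decreases in Meis2, a homeodomain factor, and Rpgrip1, a protein of the photoreceptor cilium, were among the largest. Meis2 had 0.187, 5.46, 0.250 and 3.02 CPM in microglia and 135, 136, 100.5 and 129 CPM in retina (log2 difference -5.81, SE 1.12, adjusted p = 0.00398), so microglia replicates 2 and 4 held nearly all of its reads there. Rpgrip1 had 0.0937, 15.5, 4.57 and 15.5 CPM in microglia and 277, 258, 300.2 and 236 CPM in retina (log2 difference -4.91, SE 1.15, adjusted p = 0.0103).

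The stretches of 150 bases before the start of 6 genes are shown because they carry or lack short cores of factors that differ between the fractions (RefSeq, GRCm38.p6). Capitals mark the letters GAGGAAG, a core bound by the myeloid factor PU.1, in the first 4 genes, and TAATCC, a core bound by the photoreceptor factor CRX, in the last 2, on either strand, where CTTCCTC and GGATTA are the same cores read from the other strand.
P2ry13 (chr3:59210883-59211032, minus strand): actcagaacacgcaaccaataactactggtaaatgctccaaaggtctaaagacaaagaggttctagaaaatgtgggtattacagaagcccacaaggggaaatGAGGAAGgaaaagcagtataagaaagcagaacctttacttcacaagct
P2ry12 (chr3:59262986-59263135, minus strand): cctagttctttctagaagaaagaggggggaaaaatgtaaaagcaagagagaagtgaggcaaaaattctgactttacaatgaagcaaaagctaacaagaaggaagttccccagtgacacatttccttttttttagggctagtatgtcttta
Itgam (chr7:128062490-128062639, plus strand): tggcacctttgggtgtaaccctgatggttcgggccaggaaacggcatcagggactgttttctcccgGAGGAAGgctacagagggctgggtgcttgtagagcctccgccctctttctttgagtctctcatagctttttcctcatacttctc
Trem2 (chr17:48346251-48346400, plus strand): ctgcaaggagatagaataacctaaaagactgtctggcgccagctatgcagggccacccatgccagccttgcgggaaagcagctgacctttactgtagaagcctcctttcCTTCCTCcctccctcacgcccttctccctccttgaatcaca
Crx (chr7:15879956-15880105, minus strand): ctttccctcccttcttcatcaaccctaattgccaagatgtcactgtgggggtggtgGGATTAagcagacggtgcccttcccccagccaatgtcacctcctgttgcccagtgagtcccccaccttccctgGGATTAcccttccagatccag
Sag (chr1:87803530-87803679, plus strand): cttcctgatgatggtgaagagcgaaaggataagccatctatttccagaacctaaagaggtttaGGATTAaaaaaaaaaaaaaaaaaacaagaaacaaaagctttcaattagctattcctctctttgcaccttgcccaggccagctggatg
The PU.1 core begins 48 bases before the start of P2ry13, 84 before that of Itgam and 41 before that of Trem2, and it is absent from the window of P2ry12. Itgam has another match 32 bases after its start, which is not printed. The CRX core begins 94 and 21 bases before the start of Crx and 87 before that of Sag. Over windows of 300 bases, 250 before and 50 after the start, GAGGAAG was found in 13.6% of all 32851 promoters, in 20.1% of those of genes at least 4-fold higher in microglia, in 10.2% of those at least 4-fold lower and in 12.7% of those that did not differ. The shares for TAATCC were 7.06%, 6.20%, 9.91% and 5.64%. A match describes letters and is no evidence of binding.

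The receptors for CSF1, G-CSF and GM-CSF and the TGF-beta receptors Tgfbr1 and Tgfbr2 were higher in microglia. Their list also holds BMP, FGF, PDGF, neurotrophin, IGF1 and insulin receptors, the proteoglycan Sdc3 and Cx3cr1, which is counted again among chemoattractant receptors. Of its 20 tested members, 10 were higher in microglia, Cx3cr1 and Sdc3 among them, 3 were lower and 7 did not pass. The median log2 difference was 2.16, and 2 members without a retina read could not come out lower. Tgfbr1, the type I TGF-beta receptor, had 1454, 1736, 1990.2 and 1476 CPM in microglia and 31.6, 9.24, 22.4 and 11.7 CPM in retina (log2 difference 6.47, SE 0.47, adjusted p = 2.46e-05). Tgfbr2, its type II partner, had 1252, 1279.7, 1328 and 1099 CPM and 0, 4.66, 0 and 6.65 CPM (log2 difference 8.77, SE 1.87, adjusted p = 0.00653). For both receptors the groups did not overlap. Csf3r, the receptor for granulocyte colony-stimulating factor, had 462 ± 19.9 CPM in microglia (SD, n = 4), and the receptor subunits for GM-CSF Csf2ra, Csf2rb and Csf2rb2 had means of 264, 106 and 54.3 CPM. Csf2rb and Csf2rb2 are near-identical neighbours between which reads can be split, and both had 0 reads in retina. Lower in microglia were Bmpr1a, a BMP receptor (-1.92), Igf1r, the IGF1 receptor (-2.03), and Ntrk3, the receptor for neurotrophin 3, with 1 read in microglia against 19.2 CPM in retina. The insulin receptor Insr had 23.5 and 34.4 CPM and did not pass (log2 difference -0.55, SE 0.45, adjusted p = 0.373), and Acvr1 and Bmpr2, receptors for BMPs, did not pass either (adjusted p = 0.201 and 0.67).

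The ligands of these receptors were found in both fractions. Tgfb1 had 205, 231, 269 and 176 CPM in microglia and 0.213, 1.37, 0 and 0.0834 CPM in retina (log2 difference 9.09, SE 1.26, adjusted p = 0.000733). Tgfb2 was lower in microglia, with 5.74, 6.75, 5.49 and 15.9 CPM against 42.3, 18.4, 28.7 and 48.4 CPM (log2 difference -2.03, SE 0.48, adjusted p = 0.0108). By RPKM, Tgfb1 made up 95.5% ± 3.52 of the TGF-beta ligand transcripts of microglia (mean ± SD, n = 4) and Tgfb2 made up 90.2% ± 7.27 of those of retina. Nrros, which anchors and activates latent TGF-beta on myeloid cells, had 417 CPM in microglia and 1.98 in retina. Csf1 had 24.5, 17.3, 13.3 and 21.3 CPM in microglia and 0, 0, 18.6 and 0 CPM in retina and did not pass (log2 difference 2.04, SE 2.20, adjusted p = 0.496), and Il34, the other ligand of CSF1R, was left out by the filter. The fractalkine gene Cx3cl1 had 46.6, 7.68, 20.1 and 74.6 CPM in retina and 5.97, 6.52, 8.82 and 17.8 CPM in microglia and did not pass (log2 difference -1.93, SE 0.71, adjusted p = 0.0621). Its receptor Cx3cr1 had 5844, 6377, 6275 and 6336 CPM in microglia and at most 2.05 CPM in a retina library (log2 difference 13.53, SE 1.86, adjusted p = 0.000702). St8sia1, which makes gangliosides that Siglec receptors can bind, was lower in microglia (-3.03), Cd47, the ligand of SIRPA, was higher (1.39), and Cd200 had 3.70 and 13.02 CPM without passing (adjusted p = 0.522). Over the whole list of 19 tested ligands, 6 were higher and 3 lower. The list median of 0.04 became -0.23 with upper quartile scaling and -0.01 with total counts only.

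Cytokine receptors were mostly higher in microglia. Of 25 tested, 21 were higher and 0 lower (median log2 difference 6.40), and 8 of them had no read in retina and could not come out lower. Ifngr1, the ligand-binding chain of the interferon gamma receptor, had 1245 ± 153 CPM in microglia and 69.6 ± 13.1 CPM in retina (log2 difference 4.16, SE 0.19, adjusted p = 3.48e-06). Its partner Ifngr2 lies in a run of 4 neighbouring genes on chromosome 16, Ifnar2, Il10rb, Ifnar1 and Ifngr2, all at least 4-fold higher in microglia, at 4.81, 5.45, 2.46 and 3.46 on the log2 scale. Il10ra, the specific chain for the anti-inflammatory cytokine IL-10, had 476, 585, 582 and 554 CPM in microglia and 0 reads in retina (at least 29761-fold). The TNF receptor Tnfrsf1b had 637 CPM and 0 reads in retina (at least 34512-fold), and Tnfrsf1a had 255 against 2.99 CPM (log2 difference 6.40, SE 1.94, adjusted p = 0.0307). Il21r, Il13ra1, Il6ra, Il4ra and Il17ra had means of 232, 235, 273, 345 and 530.5 CPM in microglia. The members that did not pass were Lifr (46.1 and 71.9 CPM), Cntfr (13.1 and 36.95), Il1rap (21.03 and 2.36) and Il1r1 (6.38 and 3.93). The call of Tnfrsf1a ended when any 1 of the 4 microglia libraries or retina replicate 2 was left out (adjusted p up to 0.0627), and that of Il17ra without retina replicate 2 (0.0554).

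Of 24 listed receptors for chemokines and other chemoattractants, 14 were left out by the filter, among them Cxcr4, Ccr7, Fpr1 and Ackr3, and 9 of the 10 tested were higher in microglia. Among those tested, 4 had no retina read and could not come out lower. After Cx3cr1 came the anaphylatoxin receptors C5ar1 (586, 519, 594 and 508 CPM) and C3ar1 (579.9, 456, 523 and 346 CPM). Neither had a read in retina, giving at least 30077 and 26109-fold higher levels. C5ar2, a second C5a receptor, and Ptafr, the receptor for platelet-activating factor, had means of 80.997 and 82.1 CPM. Ccrl2 had 38.4 and 0.902 CPM and did not pass (adjusted p = 0.0637).

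P2ry12, the ADP receptor that guides microglial processes, had 2473, 3289, 3470.2 and 3200.0 CPM in microglia and 4.27, 0, 0 and 2.67 CPM in retina (log2 difference 10.79, SE 1.84, adjusted p = 0.00209). P2ry12 and P2ry13 lie within the gene Med12l, and strand use in counting is not given here. P2ry6, a receptor for UDP, had 485 ± 68.03 CPM, and the ATP-gated channels P2rx7 and P2rx4 had 296 ± 24.2 and 155 ± 51.1 CPM in microglia. Entpd1 (CD39), which removes phosphates from ATP and ADP, had 713, 675, 753 and 723 CPM in microglia and 0 reads in retina (at least 38914-fold higher). Nt5e (CD73), which turns AMP into adenosine, was lower in microglia, with 11.4, 4.07, 12.99 and 34.3 CPM against 232, 329, 293 and 246 CPM (log2 difference -4.13, SE 0.62, adjusted p = 0.00109). The microglia level of Nt5e was within the range of rod transcripts. Of the adenosine receptors, Adora3 was higher (63.4 CPM and 1 read in retina) and Adora1 had 13.7 and 20.9 CPM without passing (adjusted p = 0.413). In all, 9 of 13 tested purine receptors and ectonucleotidases were higher and 1 lower, and 2 without a retina read could not come out lower.

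Pattern recognition genes were higher in 31 of 35 tested and lower in 0 (median log2 difference 11.43, or 11.15 with genes without a retina read set at the floor). Of those tested, 13 had no retina read and could not come out lower. Unc93b1, which carries Toll-like receptors of nucleic acids to endosomes, had 3349 ± 266 CPM in microglia (9 reads in retina). Per length, Tlr2 had 123 RPKM in microglia, Tlr13 73.3, Tlr7 33.4, Tlr12 32.9 and Tlr4 17.7, all with 0 reads in retina. Tlr9 and Tlr5 had 6.39 and 16.8 CPM. Of the Toll-like receptor partners, Cd14 had 836 ± 43.6 CPM and Ly86 had 1009 ± 38.4 CPM, and the adaptor Tmem173 (STING) had 637 ± 96.5 CPM. Myd88, the adaptor shared by most of these receptors, had 83.1, 73.8, 105 and 77.5 CPM in microglia and 8.03, 8.84, 26.2 and 0 CPM in retina and did not pass (log2 difference 2.98, SE 1.29, adjusted p = 0.103). Its groups did not overlap, but the retina libraries ran from 0 to 26.2 CPM. Nod1, Ifih1 and Nod2 did not pass either.

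Receptors for antibodies and complement were higher in 14 of 15 tested, of which 6 had no retina read and could not come out lower. Fcer1g, the common signalling chain, had 1167 ± 68.99 CPM, Fcgr3 had 1722 ± 92.04, Fcgr2b had 412 ± 53.6 and Fcgr1 had 269.6 ± 34.2 CPM in microglia, against at most 0.326 CPM on average in retina. Fcrls, a scavenger receptor used as a microglia marker, had 712, 594, 525 and 478 CPM and 0 reads in retina. Cd59a, which protects cells from the complement pore, was the 1 member lower in microglia, with 3.58, 7.66, 6.87 and 3.26 CPM against 108, 99.4, 68.97 and 61.5 CPM (log2 difference -3.98, SE 0.39, adjusted p = 0.000117).

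Of 24 tested genes for engulfment, 13 were higher and 3 lower, and 3 others had no retina read and could not come out lower. Trem2, a lipid-sensing receptor, had 1490.0, 1426, 1481 and 1464 CPM, Tyrobp, its adaptor, 984, 886, 815 and 844 CPM, and Cd68, a lysosomal scavenger receptor, 1375, 1239.6, 1316 and 1150.3 CPM. Itgb5, the beta subunit of the integrin that binds MFGE8, had 4841, 5115, 5014 and 4388 CPM in microglia and 36.6, 64.3, 44.3 and 43.99 CPM in retina (log2 difference 6.68, SE 0.23, adjusted p = 1.30e-06), but its partner Itgav had 192 and 24.96 CPM and did not pass (adjusted p = 0.0693). The receptor kinases Mertk and Axl had 510.5 ± 39.7 and 522 ± 88.4 CPM in microglia (6.42 and 6.26 on the log2 scale), whereas Tyro3 had 2.44 and 15.5 CPM and did not pass (adjusted p = 0.154). By RPKM, Mertk and Axl made up 53.3% ± 4.74 and 46.6% ± 4.70 of the 3 kinases in microglia and Tyro3 45.9% ± 12.1 in retina. The bridging proteins that link these receptors to exposed phosphatidylserine came from both fractions. Pros1 was higher in microglia (808, 1022, 1125 and 753 against 15.4, 0.171, 0 and 18.2 CPM, log2 difference 6.77, SE 1.77, adjusted p = 0.0164). Mfge8 was lower (127, 155, 162 and 219.8 against 1317, 2123, 2168 and 1605 CPM, log2 difference -3.44, SE 0.25, adjusted p = 2.19e-05). Gas6 was at 625, 424, 443 and 343 CPM in microglia and 347, 550.5, 509 and 378 CPM in retina, with overlapping groups (log2 difference 0.04, SE 0.23, adjusted p = 0.905). Scarb1, a lipoprotein receptor, and Jmjd6 were also lower. The call of Axl ended without any 1 of the 4 microglia libraries or retina replicate 2 (adjusted p up to 0.064).

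Inhibitory receptors were higher in 22 of 23 tested, 0 being lower. Of those tested, 15 had no read in retina, so they passed the filter through microglia alone and could not come out lower. Sirpa, the receptor for CD47, had 3361, 3958, 4149 and 3801 CPM in microglia and 175, 247, 239 and 207 CPM in retina (log2 difference 4.14, SE 0.16, adjusted p = 1.82e-06). Lair1, a collagen receptor, had 1002 ± 44.6 CPM, Cd33 337 ± 22.1, Havcr2 (TIM-3) 327 ± 47.4, Siglece 139 ± 9.82 and Cd300c2 165 ± 21.5 CPM in microglia. The phosphatases that such receptors recruit were also high, with 1515 ± 105 CPM for Inpp5d (SHIP1) and 695 ± 78.9 CPM for Ptpn6 (SHP-1), against 2.29 and 1.68 CPM in retina. Cd200r1 was low at 14.7 CPM. The paralogs of the Cd300, Clec4a and Siglec families are similar in sequence, and their counts could be split between copies.

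Selplg, a ligand of selectins, had 7102 ± 701 CPM in microglia and 0.738 CPM in retina, Itgb2 had 1202, 1251, 1279 and 1199 CPM and 0 reads in retina, and Itga6, a laminin receptor subunit, had 464 ± 36.1 CPM against 2.40. The neural adhesion genes Ncam1 (-3.51), Cdh2 (-1.90) and Nrcam (-1.63) were lower. Among 26 tested neurotransmitter receptors, 2 were higher and 7 lower in microglia. Adrb1, the beta-1 adrenergic receptor, was among the higher ones, with 67.8, 76.9, 58.2 and 105 CPM in microglia and 20.4, 3.87, 6.76 and 17.6 CPM in retina (log2 difference 2.66, SE 0.54, adjusted p = 0.00529). Drd4, the dopamine receptor of photoreceptors, was lower (-4.11), as were Gabbr1, Grik1 and Grm8. The call of Gabbr1 ended without any 1 of 7 libraries (adjusted p up to 0.121, without microglia replicate 2), and those of the adhesion genes Cdh2 and Nrcam without any 1 of 5 (up to 0.0985 without microglia replicate 1 and 0.0644 without microglia replicate 3).

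Among 20 listed channels and transporters of microglia, 16 were higher and 0 lower. Slco2b1, an organic anion transporter, had 1933 ± 235 CPM against 0.815. The potassium channels Kcnk6 and Kcnk13 had 251, 269.9, 261 and 237 and 94.1, 163, 166 and 118 CPM in microglia and 0 and 1 reads in retina. Hvcn1, the proton channel that balances the charge moved by the phagocyte oxidase, had 173 ± 3.57 against 0.490 CPM. Kcna3 and Kcnj2, potassium channels often recorded in microglia, had 5.20 and 53.5 CPM and did not pass (adjusted p = 0.847 and 0.102). Among 24 tested channels of neurons and photoreceptors, 0 were higher and 16 lower. The sodium pump subunit Atp1b3 made up 78.3% ± 5.82 of the beta subunit RPKM in microglia, and Atp1b2 made up 94.98% ± 3.98 in retina.

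Of 50 tested factors from the list for microglia and macrophages, 38 were higher in microglia and 1 lower (median log2 difference 5.22). Among these 50, 4 had no retina read and could not come out lower. Spi1, which encodes PU.1, had 664, 609.9, 643 and 531 CPM in microglia and 2 reads in retina. Sall1, a zinc finger factor that marks microglia among macrophages, had 437, 483, 585 and 374 CPM and 1 read (count ratio 76760.5, 95% counting interval 13777 to 3031920.0). Irf8 had 1332, 1276, 1306 and 1061 CPM in microglia and 2.41, 0.0284, 0.134 and 0.0626 CPM in retina (log2 difference 10.84, SE 1.54, adjusted p = 0.000836), with 1 retina library above the others. In each of these 3 genes all microglia libraries lay above all retina libraries, as in 28.2% of all genes tested. Per length, abundant members of the list in microglia were Spi1 (227 RPKM), Irf5 (212), Irf8 (176), Etv5 (96.2), Rela (91.4) and Sall1 (89.2).

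Other factors of the list included Runx1, a regulator of blood lineages (147, 86.1, 104 and 96.9 CPM and 0 reads in retina), Sall3 (212 CPM), Nfatc1 (328 CPM), Cebpa (129 CPM) and Ikzf1 (165 CPM). The lineage partners Maf and Mitf had 86.7 and 18.8 CPM. Of the effectors of TGF-beta, Smad3 had 129.5, 178, 98.6 and 104 CPM in microglia and 21.9, 0, 0 and 17.8 CPM in retina and did not pass although the groups did not overlap (log2 difference 3.68, SE 1.74, adjusted p = 0.131). Smad2 and Smad4 had log2 differences of 0.40 and -0.20 that did not pass either. Mef2a and Mef2c made up 32.3% ± 2.71 and 40.02% ± 3.27 of the family's RPKM in microglia, and Mef2d made up 80.9% ± 2.63 in retina. Mef2a was higher in microglia (log2 difference 2.56, SE 0.31, adjusted p = 0.000374), Mef2c was higher by a small amount (log2 difference 0.94, SE 0.15, adjusted p = 0.00155) and Mef2d was lower (log2 difference -2.02, SE 0.22, adjusted p = 0.00022). Among interferon regulatory factors, Irf5 and Irf8 took 44.1% ± 4.49 and 36.6% ± 2.67 in microglia, and Irf7 and Irf3 took 45.8% ± 15.3 and 33.3% ± 13.95 in retina. Mitf lost its call without any 1 of 6 libraries (adjusted p up to 0.0781), and Irf7, which was higher by 0.93, without any 1 of 5 (up to 0.0826, without retina replicate 2).

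Retinal transcription factors were lower in 21 of 48 tested and higher in 4. Crx, the homeodomain factor of photoreceptors, had 38.6, 62.9, 91.9 and 96.02 CPM in microglia and 1319, 1367, 1203 and 1227 CPM in retina (log2 difference -4.14, SE 0.31, adjusted p = 2.66e-05). Nrl, the rod determinant, had 30.4, 24.6, 31.02 and 33.6 CPM and 583, 959, 763 and 679 CPM (log2 difference -4.64, SE 0.21, adjusted p = 3.20e-06). Nr2e3, Neurod1, Otx2, Rax and Rorb had log2 differences of -4.20, -4.21, -4.07, -3.83 and -3.67. The 21 lower factors stood in microglia at 1.78% to 25.1% of their retina level, with a median of 7.85%. Marker medians were 4.93% for rods and 14.5% to 35.1% for the other retinal cells. Esrrb, an estrogen-related receptor of rods, had 6.09, 5.49, 4.47 and 5.66 CPM in microglia and 159, 155, 151 and 113 CPM in retina (adjusted p = 2.66e-06). The other 4 called members went the other way. Zfhx3 had 128, 153, 194 and 142 CPM in microglia and 4.58, 0.626, 1.47 and 2.92 CPM in retina (log2 difference 6.0, SE 0.64, adjusted p = 0.000189), and Sox4 had 61.8, 106, 90.7 and 99.1 CPM and 7.59, 1.22, 5.77 and 5.34 CPM (log2 difference 4.16, SE 0.55, adjusted p = 0.00055). Prdm1, which has roles both in photoreceptor precursors and in immune cells, and Nfix were higher by 2.09 and 1.05. Their calls ended without any 1 of 6 and 7 libraries (adjusted p up to 0.0954 without retina replicate 4 and 0.0943 without retina replicate 2).

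**Figure D3:**
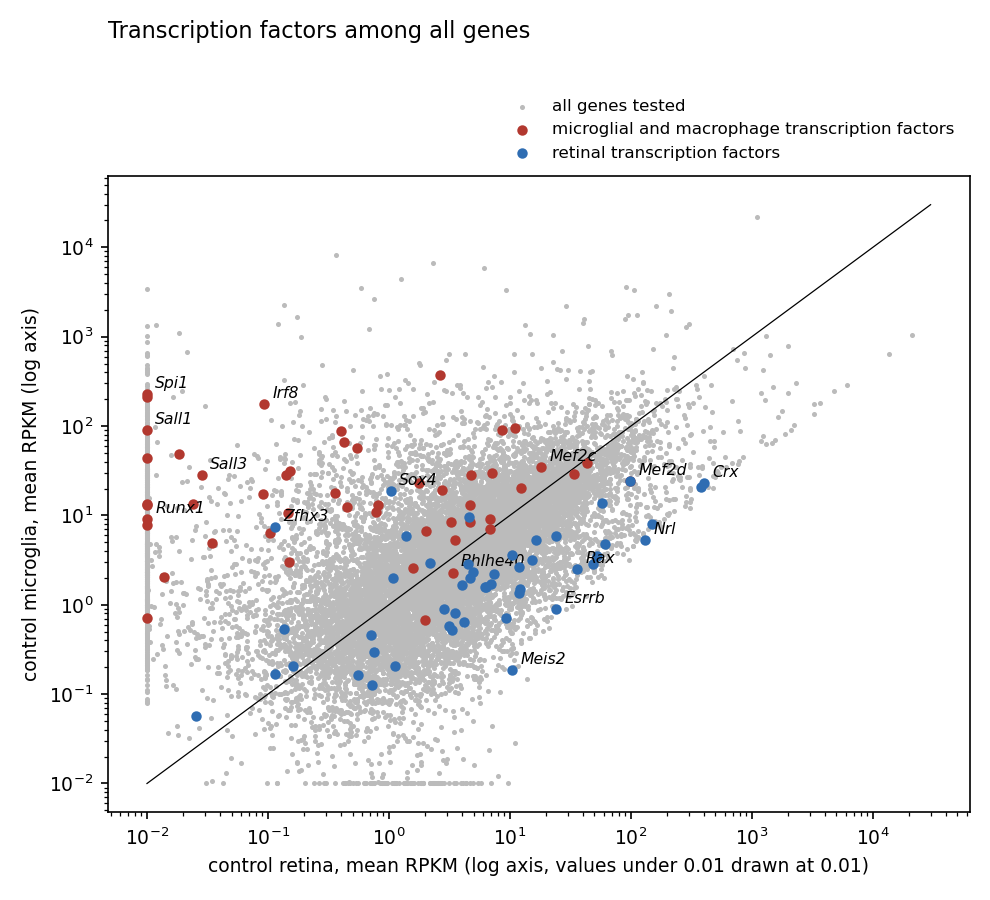
Mean RPKM of every gene tested (grey) in control microglia against control retina, both on log axes with values under 0.01 drawn at 0.01; red marks the listed factors of microglia and macrophages, blue the listed retinal factors, and the line marks equal levels. Spi1 and Sall1 sit at the left edge at 227 and 89.2 RPKM in microglia, and Zfhx3 and Sox4 are the blue points that lie farthest above the line among the named ones.

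Of 29 tested genes of glucose entry and glycolysis, 22 were lower in microglia and 6 higher (median log2 difference -2.23). The lower members stood at 8.23% to 44.2% of the retina level (median 16.7%), above the rod range in all but Eno2, the lowest. Markers of the other retinal cells had medians of 14.5% to 35.1%, so the source of these transcripts in microglia libraries was not settled. Pkm, the last enzyme of the pathway, had 1142, 1124, 1139 and 1291 CPM in microglia and 8425, 11389.6, 11419 and 8387 CPM in retina (log2 difference -3.08, SE 0.15, adjusted p = 4.01e-06). Ldha, which turns pyruvate into lactate, had 628, 575, 662 and 745 CPM and 3406, 4791, 5135 and 3688 CPM (log2 difference -2.70, SE 0.17, adjusted p = 1.26e-05). Hk1, the hexokinase of neurons, was lower as well (log2 difference -3.13, SE 0.17, adjusted p = 6.23e-06). Higher in microglia were Slc2a5, a hexose transporter known for carrying fructose, with 913, 1017, 1066 and 877 CPM against 0.0582, 0, 0.0267 and 2.59 CPM (log2 difference 10.47, SE 1.76, adjusted p = 0.00193), and Hk3, the hexokinase of myeloid cells, with 135, 259.7, 212 and 166 CPM and 0 reads in retina (at least 10464-fold). Ldhb, the isoform that favours lactate use, had 602, 577, 566 and 548 CPM against 112, 101, 196 and 169 CPM (log2 difference 1.99, SE 0.23, adjusted p = 0.000281). Pfkfb3 and Pfkfb4, which make an activator of phosphofructokinase, were higher by 4.42 and 4.52, and the monocarboxylate carrier Slc16a7 by 5.27. The call of Slc16a7 ended without any 1 of the 4 microglia libraries or retina replicate 4 (adjusted p up to 0.0613).

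As shares of family RPKM, Slc2a5 made up 88.3% ± 2.75 of 3 glucose transporters in microglia, and Slc2a1 made up 97.4% ± 1.32 in retina. Hk3 made up 45.3% ± 5.94 of hexokinases in microglia and 0% in retina. Ldhb made up 64.98% ± 3.17 of lactate dehydrogenases in microglia and 6.75% ± 1.92 in retina. The retina share of Pfkfb2 among the phosphofructo-2-kinases was 64.6% ± 16.3, against 1.09% ± 0.537 in microglia. Aldoa and Eno1 led their families in both fractions.

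**Figure D4:**
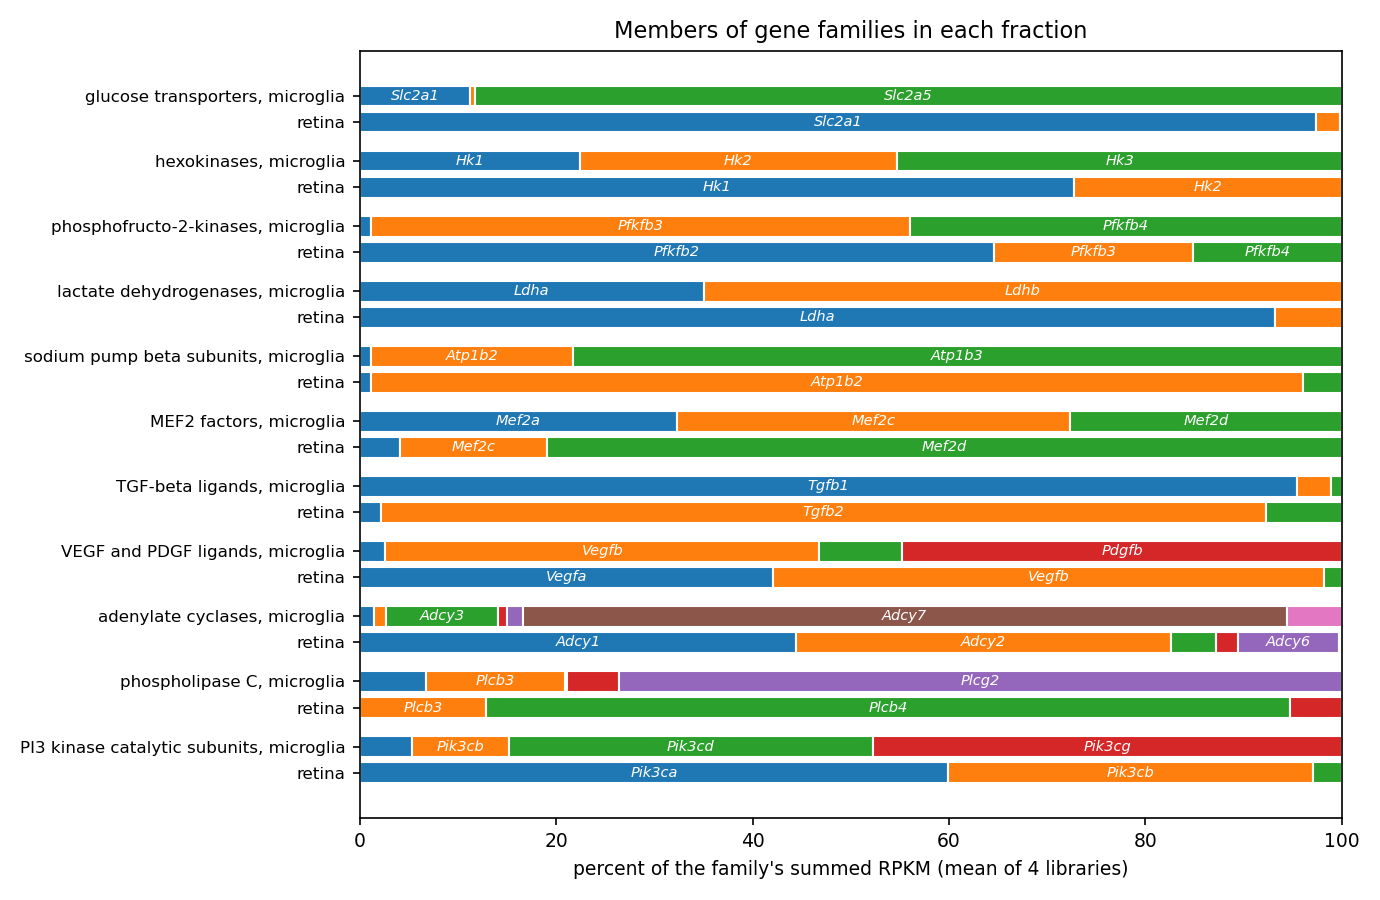
Share of each family's summed RPKM taken by its members, as the mean of 4 libraries, in microglia (upper bar) and retina (lower bar); colours separate members within a family, and members under 9% carry no name. Only part of the families is drawn, and in these the leading member differs between the fractions. Examples are Slc2a5 and Slc2a1, Ldhb and Ldha, Atp1b3 and Atp1b2, and Tgfb1 and Tgfb2. Pdgfb and Vegfb were close in microglia (44.8% and 44.2%). In several families not drawn the same member led in both fractions, as with Pfkl (82.7% in microglia and 75.1% in retina) and Eno1 (98.0% and 95.6%).

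Respiratory genes were lower in microglia by a smaller amount. Of 55 nuclear genes of oxidative phosphorylation, 41 were lower and 0 higher (median log2 difference -0.91), and the lower members stood at 19.8% to 73.8% of the retina level. Atp5b, the catalytic subunit of ATP synthase, had 756, 722, 829 and 913 CPM in microglia and 2669, 3291, 3029.7 and 2561 CPM in retina (log2 difference -1.84, SE 0.13, adjusted p = 2.27e-05). Ndufa4 had the largest decrease (-2.34), and Cox4i1 had a log2 difference of -0.43 that did not pass. Without microglia replicates 1 and 2 the count of lower genes fell from 41 to 27. Of the 13 protein genes of the mitochondrial genome, 8 were lower and 0 higher, and 3 were lower without those replicates. These genes have nuclear copies, and how reads matching both were counted is not given. In the tricarboxylic acid cycle 11 of 25 were lower and 5 higher, or 5 lower without microglia replicates 1 and 2. Idh2, the mitochondrial NADPH-forming isocitrate dehydrogenase, rose furthest, with 132, 78.4, 121 and 132 CPM in microglia and 7.003, 8.42, 17.8 and 16.8 CPM in retina (log2 difference 3.21, SE 0.38, adjusted p = 0.000321), and Sdhd, Idh3g, Aco1 and Sdhb were higher by 0.76, 0.62, 0.61 and 0.46. The call of Sdhb ended without any 1 of 5 libraries (adjusted p up to 0.0924, without retina replicate 1), and with upper quartile scaling Idh3g, Aco1 and Sdhb did not pass. Idh3a, the catalytic subunit of the NADH-forming enzyme, was lower (log2 difference -1.81, SE 0.23, adjusted p = 0.00047). Suclg2 had 55.5 and 2.30 CPM and did not pass (adjusted p = 0.0904), and Acod1, which makes itaconate, was left out by the filter.

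Genes that make or use NADPH and superoxide were higher in 9 of 16 tested, of which 3 had no retina read and could not come out lower. The phagocyte oxidase was represented by Cyba (665 ± 29.02 CPM), Ncf1 (527 ± 27.5), Ncf4 (117 ± 14.9), Cybb (107 ± 21.5) and the GTPase Rac2 (286 ± 17.2) in microglia, and Ncf4, Cybb and Rac2 had 0 reads in retina. Of the pentose phosphate enzymes, Pgd and Tkt were higher by 1.49 and 1.23, and G6pdx had 176 and 130.0 CPM without passing (adjusted p = 0.0591). Malic enzyme, another source of NADPH, was lower: Me1 had 3.19, 16.8, 13.3 and 17.6 CPM in microglia and 201, 307, 263 and 226 CPM in retina (log2 difference -4.29, SE 0.53, adjusted p = 0.000399), and its mitochondrial relative Me2 had a log2 difference of -1.08. The call of Tkt ended without any 1 of 6 libraries (adjusted p up to 0.103, without retina replicate 1).

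**Figure D5:**
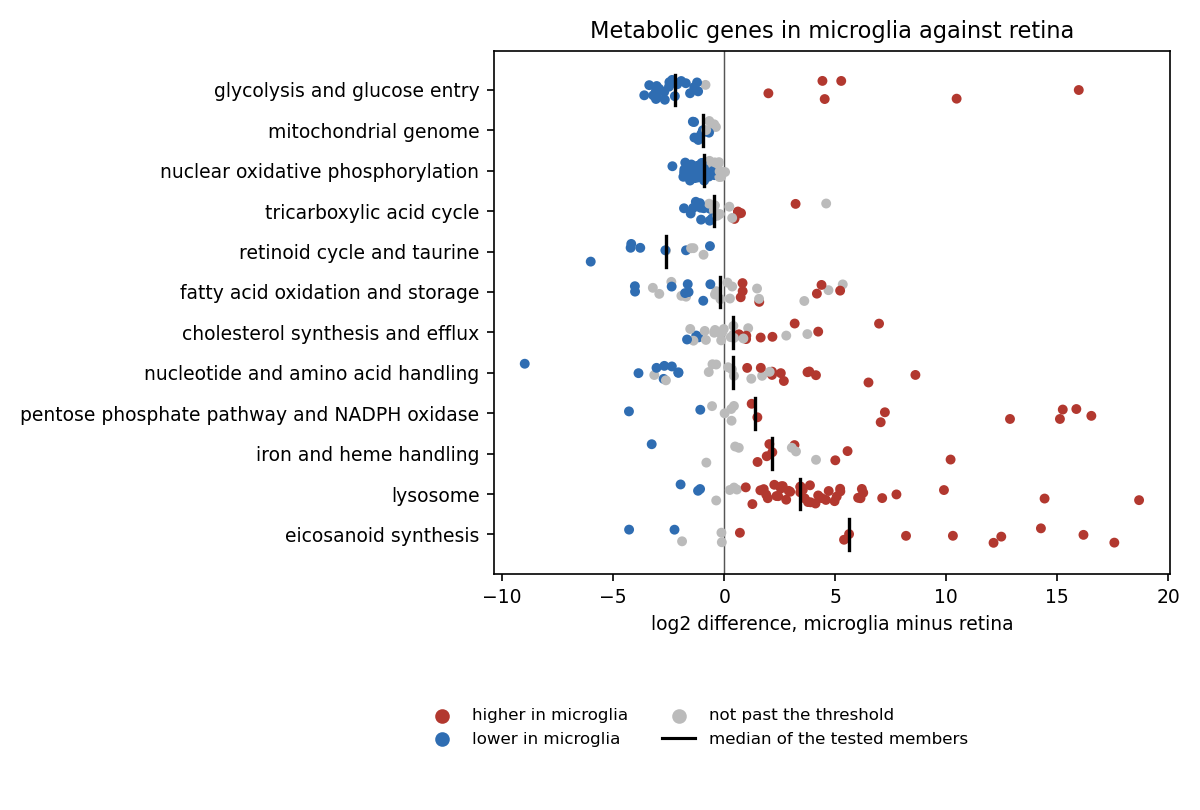
Log2 difference, microglia minus retina, of each tested gene in 12 metabolic lists; red points were higher, blue points lower, grey points did not pass the threshold, and black bars are list medians. Glycolysis and oxidative phosphorylation lie mostly below 0, with 6 glycolytic genes higher in microglia, from 1.99 upward, and lysosomal genes lie mostly above 0 (median 3.43).

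Gatm, the first enzyme of creatine synthesis, had 523, 520.4, 395 and 383 CPM in microglia and 0, 3.58, 0 and 3.48 CPM in retina (log2 difference 8.01, SE 1.70, adjusted p = 0.00629). Gamt, the second enzyme, had 15.9 and 5.80 CPM and did not pass (adjusted p = 0.172). Ckmt1, the mitochondrial creatine kinase, was lower (11.5, 2.76, 9.87 and 21.6 against 281, 268, 260.2 and 236 CPM, log2 difference -4.51, SE 0.58, adjusted p = 0.000483), and the cytosolic kinase Ckb was lower (-0.37). The call of Ckb ended without any 1 of 4 libraries (adjusted p up to 0.0907, without microglia replicate 2).

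Of 31 tested for fatty acid oxidation and storage, 7 were higher and 8 lower. The lipid droplet coats Plin2 and Plin3 and the lysosomal lipase Lipa were higher by 4.17, 4.38 and 5.22. Elovl4 and Elovl2, which make the very long polyunsaturated chains of photoreceptor membranes, were lower, with log2 differences of -4.02 and -4.03. Lpl, the lipoprotein lipase, had 40.9, 49.4, 13.9 and 30.2 CPM in microglia and 0, 0, 0 and 3.30 CPM in retina and did not pass (log2 difference 5.34, SE 2.05, adjusted p = 0.0711). Of 31 tested for cholesterol, 8 were higher and 3 lower. Soat1, which esterifies cholesterol, rose by 3.17, and the efflux pump Abca1 by 1.64, whereas its relative Abcg1 was lower (-1.68). Pmvk, an enzyme of cholesterol synthesis, was lower as well (-1.26). The calls of Plin2 and Plin3 ended without any 1 of 4 and 3 libraries (adjusted p up to 0.0603 without retina replicate 3 and 0.0561 without retina replicate 4), and that of Pmvk without any 1 of 6 (up to 0.0863, without microglia replicate 2).

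Apoe, the lipid carrier, had 6455, 2760.5, 1196 and 1315 CPM in microglia and 464, 361, 709 and 1073 CPM in retina (log2 difference 2.17, SE 0.62, adjusted p = 0.0238). Replicates 1 and 2, which had the most border macrophage markers, had the highest Apoe. Without them the log2 difference was 0.98 and no longer passed (adjusted p = 0.163). The call also ended without retina replicate 1, 2 or 3 (adjusted p = 0.0624, 0.0592 and 0.0537).

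Genes of eicosanoid synthesis were higher in 10 of 15 tested and lower in 2, and 2 others had no retina read and could not come out lower. Ptgs1 (cyclooxygenase 1) had 1461, 1823, 1951 and 1689 CPM in microglia and 1 read in retina (count ratio 281555, 95% counting interval 50533 to 11120900.0), whereas Ptgs2 (cyclooxygenase 2) was left out by the filter. Tbxas1, which makes thromboxane, had 379 ± 35.8 CPM, and Hpgds, which makes prostaglandin D2, 206, 253, 182 and 254 CPM with 0 reads in retina. Hpgd, which breaks prostaglandins down, had 359, 434, 474 and 461 CPM against 5.80, 0, 0.0267 and 0 CPM (log2 difference 8.19, SE 2.01, adjusted p = 0.0127). The leukotriene enzymes Alox5, Alox5ap and Ltc4s had 116, 84.1 and 59.3 CPM in microglia. Faah, which degrades endocannabinoids, was lower (log2 difference -4.29, SE 1.21, adjusted p = 0.0233), as was the prostaglandin E synthase Ptges2 (-2.24). The call of Faah ended without microglia replicate 3 or 4 (adjusted p = 0.0623 and 0.0603).

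Iron genes were higher in 8 of 15 tested. Trf, the plasma iron carrier transferrin, had 3577, 3626, 3426 and 3403 CPM in microglia and 52.3, 28.6, 75.3 and 143 CPM in retina (log2 difference 5.55, SE 0.51, adjusted p = 8.75e-05). Its receptor Tfrc was lower, with 9.63, 10.5, 12.3 and 34.6 CPM against 304, 165, 92.7 and 84.1 CPM (log2 difference -3.27, SE 0.61, adjusted p = 0.00339). Slc11a1, the iron and manganese pump of phagosomes, had 679 ± 38.8 CPM against 0.563, and the exporter Slc40a1 (ferroportin) had 132, 201, 215 and 199 CPM against 10.9, 0, 10.8 and 1.67 CPM (log2 difference 5.0, SE 1.32, adjusted p = 0.0172). The ferritin chains Fth1 and Ftl1 were higher by 2.16 and 3.16; both have processed pseudogenes that could share their reads. Hmox1 had 38.3 and 4.08 CPM and did not pass (adjusted p = 0.0718).

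Lysosomal genes were higher in 41 of 48 tested and lower in 3. Ctss, cathepsin S, had 11074, 11357, 12003 and 10424 CPM in microglia and 0, 0.0569, 0 and 1.92 CPM in retina, with 1 retina library at 1.92 CPM (log2 difference 14.43, SE 1.99, adjusted p = 0.000711). Ctsd, Psap, Ctsb and Lgmn were abundant in both fractions and higher by 4.97, 3.86, 2.43 and 3.77. Smpd1 (acid sphingomyelinase), Atp6v1a (a proton pump subunit) and Gla (alpha-galactosidase) were lower, with log2 differences of -1.18, -1.09 and -1.97, and Ctsf, Neu1, Mcoln1 and Npc1 did not pass.

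Genes of nucleotide and amino acid handling were higher in 11 of 30 tested and lower in 8. The transporters Slc7a7 and Slc7a8 had 146 ± 24.1 and 763 ± 117 CPM in microglia against 1.62 and 56.8 CPM, and Phgdh, which opens serine synthesis, had 113, 128, 136 and 121 CPM against 3.57, 2.79, 13.01 and 9.09 CPM (log2 difference 4.13, SE 0.53, adjusted p = 0.00048). Slc1a2 (a glutamate transporter) and the aminotransferases Got1 and Got2 were lower, with log2 differences of -3.86, -2.73 and -2.07. Of 11 tested genes for retinoids and taurine, 7 were lower and 0 higher. The taurine transporter Slc6a6 had 365, 336, 344 and 371 CPM in microglia and 2077, 2611, 2419 and 1799 CPM in retina (log2 difference -2.65, SE 0.15, adjusted p = 6.16e-06). That is a larger share of the retina level than that of any rod marker, but markers of other retinal cells had medians of 14.5% to 35.1%.

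The chains of C1q, which starts the classical complement pathway, were far higher in microglia. C1qa, C1qb and C1qc had means of 4644 ± 164, 7195 ± 446 and 6815 ± 305 CPM in microglia and of 1.31, 2.52 and 1.13 CPM in retina (adjusted p = 0.000225, 0.00198 and 0.000807). C3 had 18.3, 13.6, 4.20 and 6.58 CPM in microglia and did not pass (log2 difference 3.52, SE 1.90, adjusted p = 0.178). C4b had 254, 52.3, 94.9 and 70.2 CPM in microglia and 0, 0, 0 and 22.4 CPM in retina, with 1 library of each fraction above the rest (log2 difference 4.39, SE 2.21, adjusted p = 0.152). Of 19 listed proteins 9 were left out by the filter, and 7 of 10 were higher. Among these 10, 2 had no retina read and could not come out lower.

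Of 18 tested cytokine genes, 11 were higher and 3 lower in microglia. The 6 without a retina read could not come out lower. Il16 had 162, 159.8, 207 and 133 CPM in microglia, Tnfsf13b (BAFF) 142, 167, 185 and 161 CPM and Il1a 84.03, 78.3, 76.8 and 53.997 CPM, all with 0 reads in retina. Of the classical inflammatory cytokines, Il1b had 12.6, 11.1, 14.4 and 8.11 CPM in microglia. Tnf had 4.82, 7.68, 3.85 and 4.02 CPM there and Il6 had 1.29, 2.27, 1.32 and 3.59 CPM. Il18 and Il15 were higher by 3.25 and 2.52, and Mif, Tnfsf12 and Tgfb2 were lower, with log2 differences of -1.92, -1.88 and -2.03. Il33 did not pass (7.96 and 24.6 CPM, adjusted p = 0.0911), and Il10, Il12b and Ifnb1 were left out by the filter.

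Chemokine genes were higher in 10 of 17 tested and lower in 1, Ccl27a (log2 difference -1.98), whose call ended without any 1 of the 8 libraries (adjusted p up to 0.122, without microglia replicate 2). Of the 17, 6 had no retina read and could not come out lower. Ccl6, Ccl9, Ccl3, Ccl4 and Ccl5 lie in a run of genes on chromosome 11 that were all at least 4-fold higher, with means of 238, 130.2, 40.8, 43.3 and 34.98 CPM in microglia. Ccl12 had 289, 90.8, 83.5 and 68.3 CPM in microglia and 2 reads in retina (count ratio 11153, 95% counting interval 3087 to 92098). Its level was highest in replicate 1. The platelet factor gene Pf4, one of the border macrophage markers, had 58.7, 17.5, 0.549 and 1.21 CPM, high in replicates 1 and 2. Cxcl12 and Cxcl14 had 7.89 and 12.6 CPM in microglia and 14.9 and 8.11 CPM in retina without passing.

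Of 42 listed trophic factors, 19 were left out by the filter, including Gdnf and Cntf, and of the rest 4 were higher and 6 lower in microglia. Pdgfb had 121, 158, 146 and 109.9 CPM in microglia and 0 reads in retina (at least 7277-fold). Serpinf1, the antiangiogenic factor PEDF, had 44.5, 47.1, 30.3 and 44.8 CPM in microglia and 0, 0, 0.0534 and 2.02 CPM in retina (log2 difference 6.30, SE 1.77, adjusted p = 0.0224). Pdgfa and Bmp2 were also higher. Lower were Vegfa (2.60, 5.41, 6.37 and 16.3 against 54.2, 39.96, 70.1 and 60.7 CPM, log2 difference -2.88, SE 0.56, adjusted p = 0.00401), Fgf2 (-1.92), Fgf9 (-3.51), Ptn (-1.77), Nrtn (-2.66) and Nxnl1, the rod-derived cone viability factor (-4.32). The call of Ptn ended without any 1 of 5 libraries (adjusted p up to 0.093, without retina replicate 4). Igf1 and Bdnf are often named as microglial factors. Igf1 had 4.07, 4.78, 1.10 and 2.18 CPM in microglia and 2.23, 4.86, 4.86 and 9.03 CPM in retina. Bdnf had 2.83, 0, 0 and 3.50 CPM in microglia and 1.77, 4.47, 1.36 and 9.64 CPM in retina. Neither passed (adjusted p = 0.374 and 0.552), and the groups overlapped for both.

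Secreted proteases and their inhibitors were higher in 20 of 28 tested and lower in 1. Apart from the cathepsins and Cst3, Timp2 had 1208, 1289, 1248 and 1200.1 CPM in microglia and 128, 42.1, 32.99 and 111 CPM in retina (log2 difference 3.98, SE 0.48, adjusted p = 0.000343), and Serpine2, an inhibitor of thrombin and plasminogen activators, had 982, 1276, 1242 and 1121 CPM against 7.47, 3.73, 8.66 and 4.92 CPM (log2 difference 7.54, SE 0.35, adjusted p = 3.31e-06). The sheddases Adam10 and Adam17 were higher by 3.88 and 4.55, and Adam9 was lower (log2 difference -1.18). The matrix metalloproteases Mmp14 and Mmp9 had 115 and 1.99 CPM in microglia, and Mmp14 was higher (2.75) while Mmp9 did not pass (adjusted p = 0.645). Among other secreted proteins, Sparc, a matrix regulator, had 5271, 5648, 5583 and 5100.3 CPM in microglia and 122, 98.8, 164 and 229 CPM in retina (log2 difference 5.14, SE 0.29, adjusted p = 7.10e-06), and Olfml3 had 2761, 2691, 2613 and 2630.0 CPM and 5 reads in retina. Spp1 (osteopontin), Lgals3 and Cst7, genes known to rise in activated microglia, had 1.73, 27.4 and 18.4 CPM in microglia. Other genes linked to activation had higher levels there, such as Apoe at 2931 CPM, and Axl, Cd74 and Lyz2 as given in their own paragraphs. A state of activation was not tested. Spp1 was at 1.96 CPM in retina and did not pass (adjusted p = 0.957). Lgals3 lost its call without microglia replicate 1, 2 or 3 (adjusted p up to 0.0721), and Adam9 without retina replicate 1 (0.0542).

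Lyz2, lysozyme, had 1226, 997, 484 and 470.3 CPM in microglia and 0 reads in retina (at least 43868-fold). Genes of antigen presentation were higher in 16 of 16 tested, of which 5 had no retina read and could not come out lower. The class I genes B2m, H2-D1 and H2-K1 had 2860.1 ± 149, 4019 ± 609 and 913 ± 119.8 CPM in microglia, and the immunoproteasome subunits Psmb8, Psmb9 and Psmb10 had log2 differences of 8.62, 8.46 and 4.50. The class II genes Cd74, H2-Aa, H2-Ab1 and H2-Eb1 had means of 705, 108, 285 and 96.6 CPM. Cd74 had 1161, 842, 407 and 411 CPM, highest in replicates 1 and 2 as were Lyz2 and the border macrophage markers. Without these 2 replicates Cd74, H2-Aa, H2-Ab1, H2-Eb1 and Lyz2 remained past the threshold (adjusted p = 0.00129, 0.00403, 0.0348, 0.00542 and 0.00125). The class I genes are a family of similar copies whose reads could be split.

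Adcy7 made up 77.8% ± 5.89 of adenylate cyclase RPKM in microglia, and Adcy1 and Adcy2 made up 44.4% ± 11.7 and 38.2% ± 12.5 in retina. Plcg2, which acts below TREM2 and Fc receptors, made up 73.6% ± 3.85 of phospholipase C in microglia and 0% in retina, where Plcb4 made up 81.9% ± 13.97. The differences in Plcb4 and Adcy2 lost their calls without any 1 of 6 and 7 libraries (adjusted p up to 0.108 without microglia replicate 1 and 0.0925 without microglia replicate 2). Of the PI3 kinase catalytic subunits, Pik3cg and Pik3cd made up 47.7% ± 6.45 and 37.1% ± 4.74 in microglia, and Pik3ca made up 59.9% ± 20.05 in retina. Among arrestins, Arrb2 made up 63.9% ± 5.86 in microglia and Sag, the rod arrestin, 97.7% ± 1.25 in retina. Sag still made up 30.9% ± 6.08 in microglia, at a level within the range of other rod genes there.

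Genes that respond to cell dissociation were higher in 14 of 20 tested and lower in 3. Junb had 657, 669.9, 609.9 and 499 CPM in microglia and 17.3, 13.9, 8.87 and 18.6 CPM in retina (log2 difference 5.37, SE 0.28, adjusted p = 5.28e-06), and Zfp36 had 739.6, 792, 517 and 496 CPM against 0, 6.57, 2.83 and 7.61 CPM (log2 difference 7.23, SE 1.36, adjusted p = 0.00355). Fos had 301, 154, 70.8 and 87.2 CPM in microglia, highest in replicate 1, and 8.23, 19.9, 15.7 and 16.9 CPM in retina (log2 difference 3.34, SE 0.53, adjusted p = 0.00148). The heat shock genes Hspa1a and Hspa1b, near-identical copies, were lower (-3.57 and -3.30), as was Ier3. Most genes of this list were higher in microglia, as were most called cytokine and chemokine genes above. Whether they varied together across libraries, and the part of dissociation in those results, was not tested.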

How the data were processed

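RNA of flow-sorted CD11b-positive and CD11b-negative retinal cells was sequenced after SMARTer amplification, per the labels' protocols. The authors deposited whole-number read counts per gene on GRCm38; the submitters' processing notes name DRAGEN, STAR 2.7.9a, Subread, featureCounts, edgeR and limma, with no role or order. Whether counting used strand and how reads with several matches were treated is not given in the sources used here. Counts of the 8 control libraries were tested with edgeR 4.0.16 (R 4.3.3) by the quasi-likelihood test after filtering by expression and TMM scaling, with Benjamini-Hochberg adjustment over the 15188 genes kept and a threshold of 0.05. Log2 differences are microglia minus retina, and SE is the absolute log2 difference over the square root of the test's F statistic. CPM is scaled by TMM except in marker sums, and RPKM uses union exon length from GENCODE M21. A group without reads was set at 3 counts over the group, and intervals on count ratios are exact at 95%. The test was tested on simulated data. The members and gene lists were chosen with earlier results of these data known. Named were the sort marker and markers, the 15 largest differences each way with at least 100 CPM in the higher group, in each list the 8 most abundant members of each fraction by RPKM, members that did not pass and those against the list's direction, family members and the 10 most abundant genes. The rule also took the 10 genes with the largest coefficient of variation over the microglia libraries, above a minimum level. Another 39 genes were named after their values were seen: Adam10, Adam17, Alox5, Cd200r1, Cd33, Cebpa, Csf2rb, Csf2rb2, Cybb, Fgf2, Grm8, H2-Aa, H2-Eb1, Idh3a, Ikzf1, Il10rb, Il13ra1, Il17ra, Il1b, Il4ra, Il6, Il6ra, Kcnk13, Lgals3, Maf, Mitf, Mmp14, Nfatc1, Rax, Runx1, Sall3, Serpine2, Siglece, Tlr12, Tlr4, Tlr5, Tlr7, Tlr9 and Tnf. Some genes that the rule names are not reported here. Alternatives were other scalings, filters, tools (DESeq2 1.42.0, limma 3.58.1), a replicate block, all 18 libraries and left-out libraries. Without microglia replicates 1 and 2, and without replicate 1 of both fractions, were settings chosen after seeing the data. Promoters come from RefSeq (GRCm38.p6).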

Additional observations from a re-analysis of the deposited data

Results flagged for a closer look

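Among the genes named above with a group mean of at least 1 CPM, 540 groups of 4 libraries were looked at for a single library far from the others (gap over range above Dixon's critical value). In 46 of them (8.52%) 1 library stood apart. No chance rate is set beside this share. The critical value assumes normally distributed values, and the genes were partly named for their spread. Each is given as CPM with the range of the other 3 libraries.

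Microglia replicate 1 stood apart for Bmp2 (9.86 against 1.75 to 3.13), Ccl12 (289 against 68.3 to 90.8), Cox4i1 (267 against 218 to 221), Fcer1g (1269.9 against 1123 to 1142), Fth1 (5162 against 4117 to 4241) and Irf7 (115 against 61.0 to 67.3). Microglia replicate 2 stood apart for C5ar2 (108 against 69.8 to 76.3), Mef2a (506 against 368 to 389), Plin2 (52.9 against 81.6 to 87.4) and Sall3 (244 against 199.9 to 204). Microglia replicate 3 stood apart for C1qa (4888 against 4536 to 4590.4), Cd200r1 (26.5 against 9.74 to 11.3), Pik3cd (377 against 248 to 262) and Serpinf1 (30.3 against 44.5 to 47.1). Microglia replicate 4 stood apart for Adam9 (46.5 against 126 to 132), Ctsb (5571 against 6518 to 6648), Il15 (14.1 against 9.09 to 9.73), Jmjd6 (21.4 against 16.3 to 17.0), Neurod1 (38.5 against 13.9 to 17.97), Pkm (1291 against 1124 to 1142), Tfrc (34.6 against 9.63 to 12.3) and Tgfb2 (15.9 against 5.49 to 6.75). Retina replicate 1 stood apart for Hpgd (5.80 against 0 to 0.0267), Il1rap (8.32 against 0 to 1.13), Itga6 (9.58 against 0 to 0.0267), Kcnj2 (7.76 against 0), Nod1 (8.03 against 0) and Nrtn (8.09 against 15.5 to 17.1). Retina replicate 2 stood apart for Csf3r (5.18 against 0 to 0.0534) and Slc1a2 (204 against 139 to 147). Retina replicate 3 stood apart for Adora1 (46.9 against 11.2 to 13.7), Arrb2 (28.9 against 13.1 to 14.7), Ckb (2915 against 2286 to 2387), Csf1 (18.6 against 0), Il4ra (8.20 against 0 to 0.0417) and Lair1 (5.37 against 0 to 0.0776). Retina replicate 4 stood apart for C4b (22.4 against 0), Cyba (13.7 against 0 to 2.08), Esrrb (113 against 151 to 159), Ifih1 (5.38 against 0), Il33 (49.9 against 14.7 to 18.2), Kcna3 (7.99 against 4.81 to 5.23), Pik3ca (37.4 against 83.7 to 91.3), Pik3cd (8.78 against 0.114 to 0.240), Suclg2 (9.01 against 0 to 0.171) and Tnfrsf1a (11.6 against 0 to 0.341). In 13 of the 24 retina cases the other 3 libraries were under 1 CPM. No cause was tested.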

How the results depend on the processing

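Across 20 alternatives, 229 of the 283 called genes named above kept direction and call, 54 lost the call under at least 1 and 0 changed direction. Of the 46 that did not pass, 28 passed somewhere and 6 turned sign. The number of genes called ran from 4077 to 7523. It was 7357 with DESeq2, 7519 with limma voom and 5361 without a filter on low counts. Same-numbered microglia and retina libraries did not deviate together (correlations of -0.0134 to 0.0476 across genes). Such correlations between unlike fractions could miss shared animals, so the numbers are not shown to pair the samples, and pairing is not excluded. Both libraries numbered 1 lacked reads of the Y-linked genes, but Xist had 40.9 CPM in that of microglia and 0.0841 CPM in that of retina. With the replicate number as a block 4436 genes were called, with 3 monocyte markers higher, 4 neurotransmitter receptors and 1 ganglion cell marker lower.

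Without microglia replicates 1 and 2, genes lower fell from 2642 to 1692. Lower members then numbered 4 for cones, 4 for bipolar cells, 1 for amacrine and horizontal cells, 0 for ganglion cells, 2 for endothelial cells, 2 for neurotransmitter receptors, 5 for the tricarboxylic acid cycle, 27 for oxidative phosphorylation, 3 for the mitochondrial genome and 3 for fatty acids. Higher members numbered 0 for granulocytes, 5 for cholesterol and 10 for microglial channels. This setting leaves 6 libraries. Without replicate 1 of both fractions, lower members numbered 5 for bipolar cells, 1 for amacrine and horizontal cells, 4 for neurotransmitter receptors, 7 for the tricarboxylic acid cycle and 5 for fatty acids, and higher members 2 for granulocytes. With all 18 libraries in the fit, 10 border macrophage, 3 granulocyte and 3 lymphocyte markers were higher, and 2 endothelial markers and 1 trophic factor lower. DESeq2 gave 13 cholesterol genes higher, both limma voom fits 2 endothelial markers lower, and the filter of 1 CPM in 4 libraries 1 ganglion cell marker lower. Leaving out single libraries gave 1 to 4 lower amacrine and horizontal markers, 1 to 2 lower endothelial markers and 1 to 2 higher granulocyte markers. The cause of these changes was not tested.

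Genes that turned sign were all below the threshold in both cases. Gas6 was at -0.23 with upper quartile scaling, -0.01 with total counts, -0.24 without replicate 1 of both fractions, -0.15 without microglia replicates 1 and 2 and -0.12 to 0.17 without single libraries. Ctsf was at -0.03 with upper quartile scaling. Cxcl12 was at 0.46 with the replicate block, 0.88 and 1.27 with limma voom without and with quality weights, and -2.31 to 0.30 without single libraries. Spp1 was at 0.01 with limma voom. Without single libraries Spp1 ran from -1.06 to 0.83, Kcna3 from -0.56 to 0.07 and Adora1 from -0.81 to 0.17.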
